A study of Homo sapiens with 9 samples.

Results

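The SR and hnRNP genes studied here encode the main families of RNA-binding proteins that decide which exons a cell keeps. They were taken as every gene annotated as protein coding whose symbol is SRSF followed by a number, or HNRNP followed by letters or digits. This gave 38 genes of 58735 in the deposited tables, 12 SR genes and 26 hnRNP genes, among 19951 protein-coding genes in all. A mean of at least 1 FPKM over the 9 libraries was reached by 33 of them, 11 SR and 22 hnRNP genes. Of the other 5, SRSF12 lay between 0.0648 and 0.442 FPKM, and HNRNPCL1, HNRNPCL2, HNRNPCL3 and HNRNPCL4, relatives of HNRNPC, had 0 reads in every library.

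The study asked what collagen aligned by CPXM2, a secreted carboxypeptidase-like protein, does to gene expression in PaTu 8988t, an established human pancreatic tumour line. RNA came from 3 groups of 3 libraries: cells on an extracellular matrix labelled CPXM2R213A OE ECM (R213A), on CPXM2WT OE ECM (wild type) and on Ctrl ECM (control). All groups shared the line, the growth medium with serum, TRIzol extraction and a stranded poly(A) library kit. The labels give neither the cells that laid down the matrix nor the time on it, and they do not say that replicates were separate cultures, so the p-values below reflect variation among libraries that could be technical in part or in whole.

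The values are FPKM, reads per kilobase of gene, scaled by the authors to the size of the library. They came in 2 tables. The 4-library table holds R213A 1, R213A 3, wild type 1 and control 1, and the 5-library table holds R213A 2, wild type 2, wild type 3, control 2 and control 3. Tests took the table as a term, and differences between libraries are given within a table. Values of both tables set side by side, and group means over both, are a description. Recovered totals ran from 15951927 to 18312806 reads per library. The deposited scaling lay between 0.915 times that of the recovered totals in control 1 and 1.18 times in R213A 1, so comparisons between libraries are also given scaled to the recovered totals where that scale moved them. Of 4 markers of epithelium, KRT8, KRT18 and EPCAM reached a mean of 1 FPKM and KRT19 did not, with sums of 340 to 949 FPKM in R213A libraries, 343 to 499 in wild-type libraries and 351 to 728 in control libraries. None of 10 fibroblast markers and none of 5 immune markers reached 1 FPKM, and the fibroblast sum stayed at or below 0.837 FPKM in R213A libraries, 0.872 in wild-type libraries and 0.925 in control libraries.

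SR proteins carry RNA recognition motifs and a tail rich in arginine and serine. They bind exonic enhancers and help U1 and U2 snRNPs to find splice sites, and kinases of the SRPK and CLK families control them by phosphorylating the tail. The hnRNP proteins coat nascent transcripts and often oppose SR proteins by binding silencers, and many genes of both families limit their own level by including an exon that sends the transcript to nonsense-mediated decay. In epithelial tumour cells members such as SRSF1, HNRNPM and HNRNPA1 are known for shifting the isoforms of growth and adhesion genes.

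The sequences around the starts of 4 members are shown because these genes stood at the extremes of control 2, the library in which the families moved furthest apart from each other. Each is the 250 bases before the RefSeq start in GRCh38.p14, read on the gene's strand. Capitals mark matches, on either strand, to CACGTG (E-box), GGGCGG (GC box) and CCAAT, which were searched together with CCGGAAG, TGACGTCA and TATAAA.
HNRNPM (chr19:8444725-8444974, plus strand): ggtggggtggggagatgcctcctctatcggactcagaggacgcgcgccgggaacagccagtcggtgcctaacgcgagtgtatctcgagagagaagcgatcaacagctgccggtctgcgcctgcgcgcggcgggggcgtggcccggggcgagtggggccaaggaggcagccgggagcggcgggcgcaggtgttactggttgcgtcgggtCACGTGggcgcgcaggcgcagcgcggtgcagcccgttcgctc
SRSF1 (chr17:58007247-58007496, minus strand): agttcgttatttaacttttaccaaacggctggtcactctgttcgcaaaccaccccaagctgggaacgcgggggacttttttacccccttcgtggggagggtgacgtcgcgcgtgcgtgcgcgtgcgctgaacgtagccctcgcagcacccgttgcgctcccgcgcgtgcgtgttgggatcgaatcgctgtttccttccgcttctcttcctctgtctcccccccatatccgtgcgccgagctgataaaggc
HNRNPDL (chr4:82430226-82430475, minus strand): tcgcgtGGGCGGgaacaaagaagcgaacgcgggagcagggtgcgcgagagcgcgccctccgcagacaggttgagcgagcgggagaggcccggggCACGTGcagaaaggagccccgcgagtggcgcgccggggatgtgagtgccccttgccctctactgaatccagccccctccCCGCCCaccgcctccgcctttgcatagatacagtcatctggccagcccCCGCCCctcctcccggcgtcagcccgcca
HNRNPL (chr19:38852348-38852597, minus strand): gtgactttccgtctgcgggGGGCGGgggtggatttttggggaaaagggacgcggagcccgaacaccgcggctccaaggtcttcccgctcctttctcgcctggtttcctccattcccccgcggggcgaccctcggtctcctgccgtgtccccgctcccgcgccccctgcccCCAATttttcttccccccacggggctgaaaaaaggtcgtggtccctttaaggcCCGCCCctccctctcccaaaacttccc
HNRNPM and HNRNPDL, at opposite ends of control 2, both held an E-box, 36 and 150 bases before the start. SRSF1 held none of the 6 motifs and HNRNPL held GC boxes and a CCAAT box. RefSeq promoter windows, which also take in the 50 bases after the start, matched 34 members by symbol. Among the 30 of these that passed the FPKM filter, 7 held an E-box (23.3%), against 10.6% of 8054 protein-coding genes tested. All 7 were hnRNP genes (HNRNPA3, HNRNPD, HNRNPDL, HNRNPH2, HNRNPH3, HNRNPM and HNRNPUL1). TATAAA was found in 16.7% of member windows and 4.63% of the 8054, CCAAT in 50.0% and 37.2%, and GGGCGG in 66.7% and 73.6%. CCGGAAG was found in 16.7% and 21.6%, and TGACGTCA in 0% and 3.56%. These shares describe letters in the windows only.

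Ordered by mean FPKM over the 9 libraries, hnRNP genes took the first 6 places. HNRNPA1 (ENSG00000135486, hg38 chr12:54280193-54287088, plus strand), which binds exonic and intronic silencers, had the highest level of the members in every library. Its values were 336, 238 and 392 FPKM in R213A 1 to 3, 210.1, 249.6 and 244 in wild type 1 to 3, and 359, 298 and 247 in control 1 to 3. The groups overlapped, and wild type 1 was the lowest library. HNRNPAB (chr5:178204507-178211163), an A/B-type protein, had 233, 108 and 221 FPKM in R213A libraries, 131, 112 and 112 in wild type and 236, 83.5 and 105 in control libraries. Its high values were all in the 4-library table. HNRNPK (chr9:83968083-83980616), which binds C-rich RNA through KH domains, had 112, 128 and 132 FPKM in R213A libraries, 100.3, 133 and 119 in wild type and 174, 115 and 129.6 in control libraries. HNRNPF (chr10:43385617-43409166), which binds G-tracts, had 58.6, 106 and 99.5 FPKM in R213A libraries, 56.1, 109 and 108 in wild type and 137, 113 and 104 in control libraries. R213A 1 and wild type 1 stood apart from the other 7 libraries by their low HNRNPF. HNRNPC (chr14:21209136-21269494), which binds U-tracts and keeps Alu elements out of mRNA, had 130.2, 67.9 and 115 FPKM in R213A libraries, 90.0, 70.0 and 70.1 in wild type and 118, 81.6 and 69.1 in control libraries.

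The SR gene with the highest mean was SRSF9, at 69.9, 53.4 and 58.3 FPKM in R213A libraries, 38.4, 52.5 and 51.4 in wild type and 61.6, 46.6 and 54.6 in control libraries. SRSF3 and SRSF7, which link splicing to mRNA export, averaged 49.0 ± 11.1 and 46.1 ± 16.6 FPKM on R213A matrix, 37.4 ± 1.72 and 29.2 ± 1.06 on wild-type matrix, and 41.2 ± 20.0 and 38.1 ± 9.27 on control matrix (SD, n = 3 each). SRSF10, a splicing repressor in its dephosphorylated form, and SRSF11 had means of 8.16 and 11.6 FPKM. The lowest members above the filter were HNRNPA1L2, an intronless copy of HNRNPA1, at 3.87 FPKM and HNRNPLL, a paralogue of HNRNPL known from lymphocytes, at 5.81 FPKM. Reads of HNRNPA1, HNRNPA1L2 and HNRNPA1P48 may have been split among near-identical copies by the counting, whose rules the labels do not give. The tables held 123 further HNRNP rows annotated as pseudogenes, which are not members, and 49 of these had reads. The 74 rows whose symbol starts with HNRNPA1P held 2205 reads over the 9 libraries.

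All members together took 0.728% (control 2) to 1.37% (control 1) of the recovered reads of a library. Group means were 0.941% ± 0.169 in R213A, 0.796% ± 0.0305 in wild type and 0.971% ± 0.347 in control libraries (SD, n = 3 each). Exact 95% binomial intervals, which cover counting error only, ran from 0.725% to 0.732% in control 2 and from 1.36% to 1.37% in control 1. The control group thus held both the lowest and the highest library, and the groups overlapped. In these bulk libraries fewer cells and less RNA per cell cannot be told apart. The hnRNP genes had 3.78 to 4.42 times the summed FPKM of the SR genes in 8 libraries and 5.29 times in control 2.

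**Figure D1:**
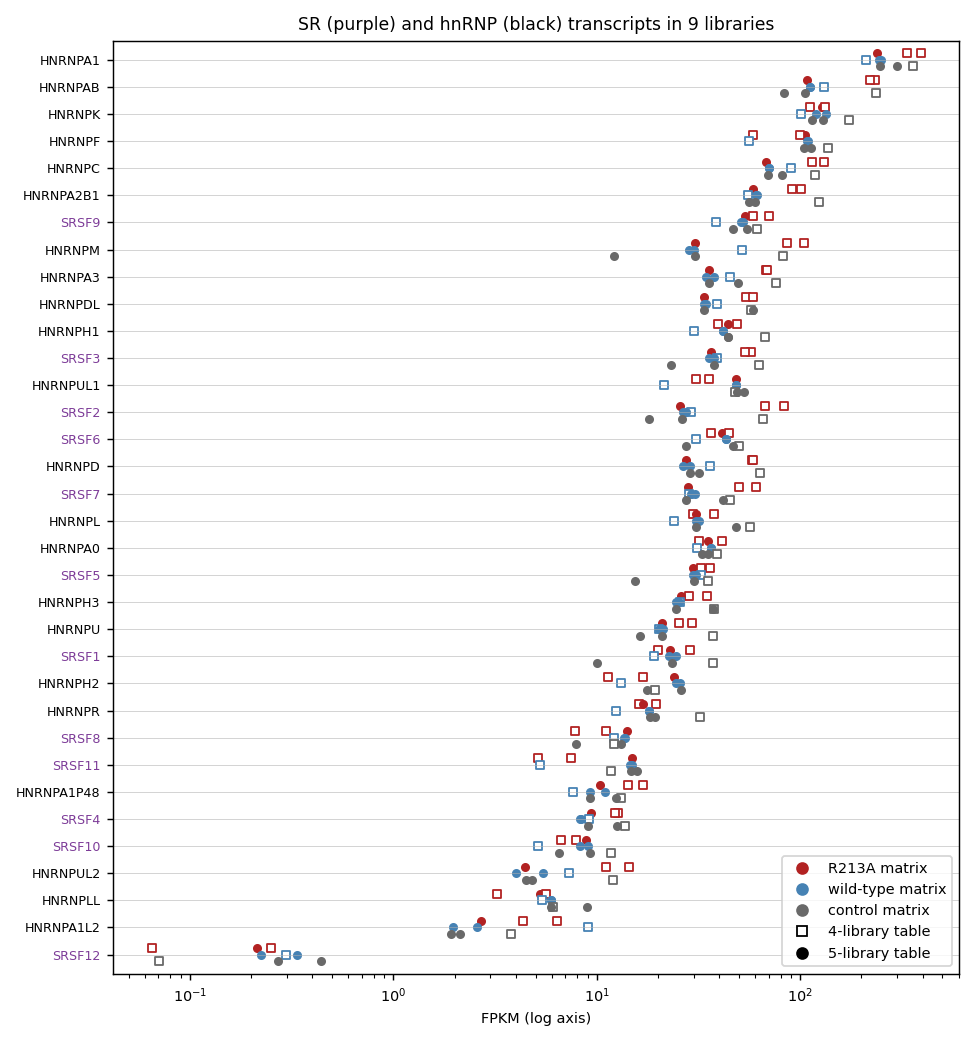
FPKM of the 34 members with reads (log axis) in 9 libraries, ordered by mean, with R213A above wild type above control in each row, squares for the 4-library table and circles for the 5-library table. HNRNPA1 is highest throughout, and the squares spread more widely than the circles, apart from control 2.

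Within the 4-library table the wild-type library held the least SR and hnRNP RNA and control 1 the most. Summed SR FPKM came to 395 and 373 in R213A 1 and R213A 3, 249 in wild type 1 and 407 in control 1, and summed hnRNP FPKM to 1494, 1637, 1022 and 1800 in the same order. These are 1 library each of wild type and control, so the differences have no replicate check. Wild type 1 was below control 1 in 31 of 33 members, against 54.0% of all 11193 genes tested, and at least 1.5-fold below it in 23, against 22.0%. This and later 1.5-fold counts are on the log2(FPKM + 1) scale. The median member difference was -0.71 on the log2(FPKM + 1) scale, beside -0.07 for all genes. The 2 exceptions were HNRNPA1L2, with 9.09 FPKM for wild type 1 against 3.77 for control 1, and SRSF8, an SRSF2 relative, with 12.1 for both. Wild type 1 was the lowest of the 4 libraries in 27 members, against 28.6% of all genes, and control 1 the highest in 20, against 39.0%. Scaled to the recovered totals, wild type 1 was the lowest in 19 members (20.4% of all genes) and control 1 the highest in 29 (45.6%).

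SR and hnRNP genes shared the low level of wild type 1 against control 1. The median difference of wild type 1 from control 1 was -0.67 for the 11 SR genes and -0.75 for the 22 hnRNP genes. R213A 1 and R213A 3 had medians against control 1 of -0.13 and -0.16 for SR genes and -0.34 and -0.11 for hnRNP genes. Scaled to the recovered totals these were -0.50 and -0.28, and -0.71 and -0.22. The order of the R213A libraries thus differed between the families only as deposited. HNRNPR (chr1:23303771-23344336), a paralogue of SYNCRIP with the widest range of its role group in this table, had 16.1 and 19.6 FPKM in R213A 1 and 3, 12.4 in wild type 1 and 32.2 in control 1. HNRNPA2B1 (chr7:26173057-26201529), the close paralogue of HNRNPA1, had 91.1 and 101 FPKM in R213A 1 and 3, 55.4 in wild type 1 and 124 in control 1. Both had their lowest level in wild type 1 and their highest in control 1. SRSF2 (chr17:76734115-76737374), which binds exonic enhancers in many transcripts, had 82.9 and 66.8 FPKM in R213A 1 and 3, 29.0 in wild type 1 and 65.7 in control 1. It was one of 5 members above control 1 in both R213A libraries, beside HNRNPA1L2, HNRNPA1P48, HNRNPM and SRSF7, against 39.7% of all genes.

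As deposited, the member medians of both R213A libraries of this table lay between wild type 1 and control 1. R213A 1 was below control 1 in 24 members (52.4% of all genes) with a median of -0.28, and R213A 3 in 25 (52.7%) with a median of -0.12, beside all-gene medians of -0.06 and -0.03. At least 1.5-fold below control 1 were 11 members in R213A 1, against 24.1% of all genes, and 2 in R213A 3, against 10.4%. Against wild type 1, R213A 1 was higher in 28 members (51.5% of all genes) with a median of 0.37, and R213A 3 in 30 (53.1%) with a median of 0.57. Scaled to the recovered totals, R213A 3 was again above wild type 1 in 30 members (47.2% of all genes), and R213A 1 was above it in 19 and below it in 14, where 35.0% of all genes were above. At least 1.5-fold below control 1 were then 17 members in R213A 1, against 42.1% of all genes, and 4 in R213A 3, against 20.1%. On that scale the median of all genes for R213A 1 stood at -0.26 against wild type 1 and -0.39 against control 1, and the member medians at 0.06 and -0.65. R213A 1 was then below control 1 in 32 members (63.9% of all genes) and wild type 1 also in 32 (56.0%). The distance of R213A 1 from wild type 1 and from control 1 therefore moved with the scaling, while wild type 1 stayed below control 1 on both scales.

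**Figure D2:**
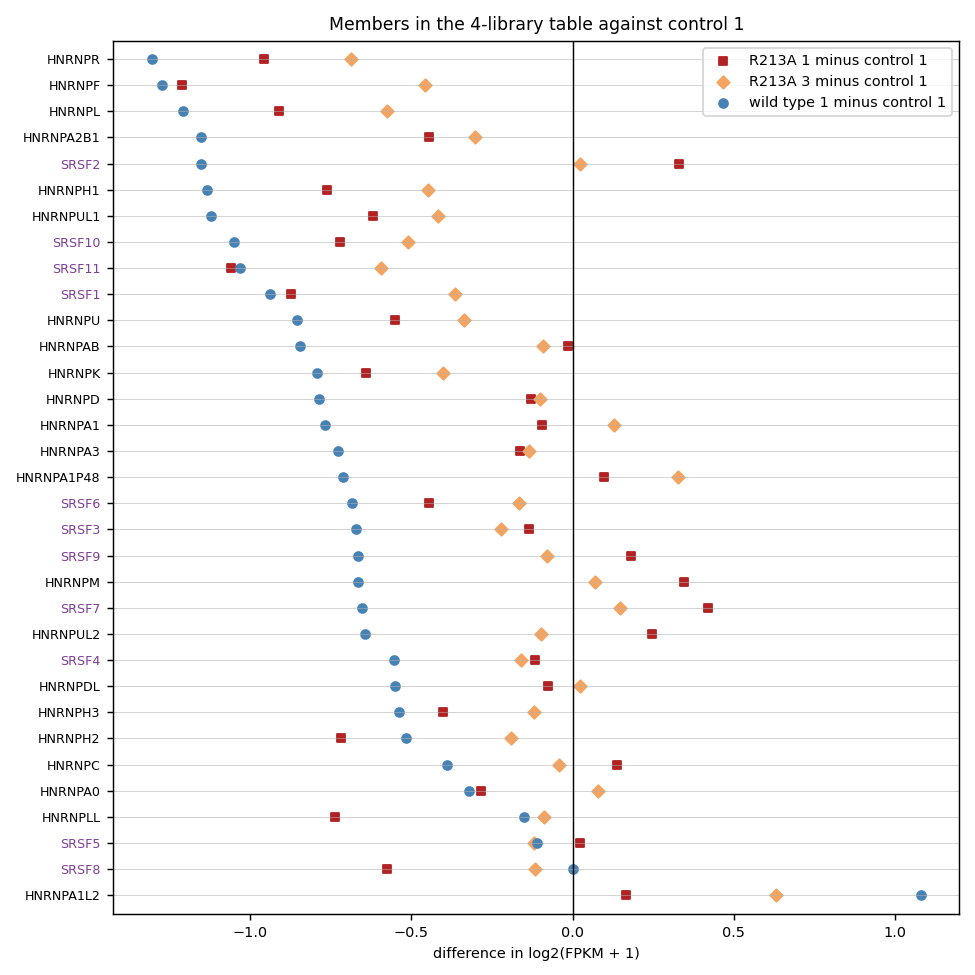
Difference in log2(FPKM + 1) of R213A 1, R213A 3 and wild type 1 from control 1, 1 row per member that passed the filter, from the 4-library table. Circles of wild type 1 lie left of 0 in 31 of 33 rows, and the R213A symbols mostly lie between them and 0.

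The 5-library table looked different. R213A 2, wild type 2, wild type 3 and control 3 had nearly the same level of every member, with a median range of 0.10 on the log2(FPKM + 1) scale and a largest range of 0.37. The median range of all genes tested was 0.16, so these libraries were close over genes in general and not only over the members. None of the 33 members ranged 1.5-fold or more over these 4 libraries, against 3.91% of all genes tested. R213A 2 was above control 3 in 13 members and below it in 20 (50.3% of all genes), with a median of -0.01, and wild type 2 and wild type 3 had medians of 0.02 and -0.02 against control 3. The lower member levels of wild type 1 relative to control 1 thus had no counterpart in wild type 2 and 3 relative to control 3.

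Control 2 stood apart, and in it the SR genes lay low relative to the hnRNP genes. Its median difference from control 3 was -0.53 for SR genes and 0.10 for hnRNP genes, beside 0.03 for all genes. Control 2 was below all other 4 libraries in 8 of 11 SR and 8 of 22 hnRNP genes, against 37.1% of all genes. It was above all of them in 3 SR and 12 hnRNP genes, against 43.7%. At least 1.5-fold below the mean of the other 4 were HNRNPM, SRSF1, SRSF3, SRSF5, SRSF6 and SRSF8, against 7.56% of all genes, and at least 1.5-fold above it were HNRNPDL and HNRNPL, against 7.21%. Scaled to the recovered totals, where the all-gene median of control 2 against control 3 was -0.14, 9 SR and 12 hnRNP genes were below all other 4 (53.8% of all genes) and 2 SR and 7 hnRNP genes above them (26.8%). The hnRNP counts on that scale, 12 and 7 of 22, were near the shares of all genes. The deposited count of 8 of 22 hnRNP genes below was also near its share of 37.1%. Past 1.5-fold were 9 members below (16.2%) and 1 above (4.53%). The medians against control 3 were then -0.73 for SR and -0.078 for hnRNP genes.

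HNRNPM (chr19:8444767-8489114), which binds GU-rich RNA and acts on CD44 isoforms in epithelial-mesenchymal transition, had the largest difference of control 2 among members, -1.23. It had 12.2 FPKM in control 2, against 30.5 in R213A 2, 28.5 and 29.9 in wild type 2 and 3 and 30.5 in control 3. SRSF1 (chr17:58003360-58007346), the founding SR protein and a known oncoprotein, had 10.0 FPKM in control 2, against 22.8 in R213A 2, 24.5 and 22.8 in wild type 2 and 3 and 23.5 in control 3. SRSF5, at 15.4 FPKM in control 2, lay between 29.6 and 30.8 in the other 4 libraries. In these 3 genes control 2 lay below every other library of its table. HNRNPDL (chr4:82422564-82430408), a neighbour and paralogue of the AU-rich element binding protein HNRNPD, had 58.6 FPKM in control 2, against 33.6 in R213A 2, 34.6 and 33.7 in wild type 2 and 3 and 33.7 in control 3. HNRNPL (chr19:38836388-38852347), which binds CA repeats, had 48.3 FPKM in control 2, against 30.6 in R213A 2, 30.7 and 31.7 in wild type 2 and 3 and 30.6 in control 3.

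Ratios between members within a library do not depend on its scaling. Of 11 such ratios control 2 lay outside the other 8 libraries of both tables in 6 and inside their range in 5. The pairs were picked by hand, so the count has no share of all gene pairs beside it. The 5 were HNRNPL over HNRNPLL, HNRNPF over HNRNPH1, SRSF2 over SRSF8, HNRNPH1 over HNRNPH3 and HNRNPUL1 over HNRNPUL2. Within the 5-library table control 2 was outside in HNRNPH1 over HNRNPH3 as well, at 1.19 against 1.65 to 1.80. The same held for SRSF2 over SRSF8, at 2.27 against 1.81 to 2.03. The 6 took in SRSF1 over SRSF9, at 0.215 in control 2 and 0.286 to 0.608 in the others, and SRSF6 over SRSF4, at 2.18 and 2.89 to 5.20. SRSF3 over SRSF7 was 0.555 in control 2 and 0.943 to 1.39 in the other 8 libraries. HNRNPD over HNRNPDL was 0.543 in control 2 and 0.785 to 1.10 in the others. HNRNPM over HNRNPK was 0.106 in control 2, against 0.214 to 0.250 in the rest of the 5-library table. HNRNPA1 over HNRNPA2B1 was highest in control 2 at 5.34 and lowest in control 1 at 2.88, with 3.68 to 4.12 in the other 7 libraries.

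**Figure D3:**
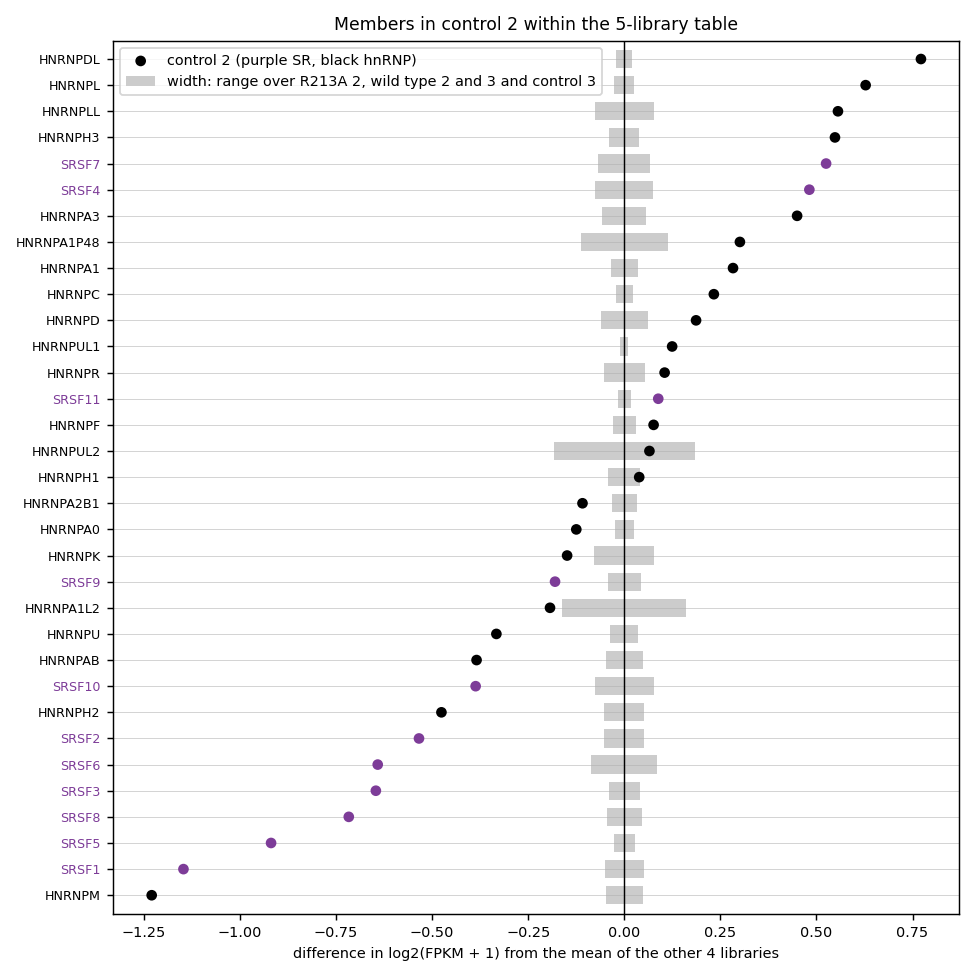
Difference of control 2 from the mean of the other 4 libraries of the 5-library table in log2(FPKM + 1), 1 row per member that passed the filter (purple names and points SR, black hnRNP); the width of each grey bar is the range over those 4 libraries. HNRNPDL at 0.77 and HNRNPM at -1.23 mark the ends, and 8 of 11 SR genes lie at the low side.

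The tables also differed in the level of single members, which is described without a test since the tables may have been scaled separately. The median FPKM of the 4-library table over that of the 5-library table ran from 0.429 for SRSF11 to 2.82 for HNRNPM. HNRNPUL2, which with HNRNPUL1 acts in the DNA damage response, had a ratio of 2.59, and HNRNPUL1 one of 0.684. HNRNPUL1 over HNRNPUL2 was 2.14 and 3.19 in R213A 1 and 3, 2.93 in wild type 1 and 3.98 in control 1. In the 5-library table it was 11.0 in R213A 2, 8.85 and 12.1 in wild type 2 and 3 and 11.0 in both controls. Across the 33 members, Spearman's rho of levels between 2 libraries was 0.936 to 0.982 within the 4-library table, 0.893 to 0.997 within the 5-library table and 0.762 to 0.905 between tables. It is a description across genes that share libraries and lengths.

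In the fit of all 9 libraries no gene passed an adjusted p of 0.05 in any of the 3 comparisons, members included (limma with a mean-variance trend on log2(FPKM + 1), group and table as terms, Benjamini-Hochberg over 11193 genes; called 0% in each). The smallest adjusted p was 0.690 for R213A against control, 0.757 for wild type against control and 0.996 for R213A against wild type. At an unadjusted p under 0.05 were 341 genes (3.05%), 503 (4.49%) and 117 (1.05%) in the same order. Of the members, 0, 2 and 0 were among them. limma-voom on the recovered reads also called 0 genes in each comparison. The 95% intervals of the members had a median half-width of 0.55, 0.53 and 0.55 log2 units.

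For wild type against control, 28 of 33 members had a fitted difference below 0, against 53.7% of all genes, with a median of -0.23 beside -0.03. Within the 4-library table the member median was -0.71 and within the other table it was 0.01, so the pooled value drew on wild type 1 and control 1. The 0.01 joined medians of 0.26 for SR genes and -0.07 for hnRNP genes. The SR value drew on control 2. SR medians of wild type 2 and 3 were 0.59 and 0.54 against control 2, but -0.03 and -0.02 against control 3. Without wild type 1 the pooled member median was -0.04 and without control 1 it was -0.08. HNRNPL had 24.1, 30.7 and 31.7 FPKM in the wild-type libraries and 56.9, 48.3 and 30.6 in control libraries, a log2 difference of -0.60 ± 0.25 (SE; unadjusted p = 0.040, adjusted p = 0.757, limma). Control 3 lay just below wild type 2 and 3 of its table. SRSF4, which has a long arginine-serine tail, had 9.11, 8.36 and 8.30 FPKM in the wild-type libraries and 13.8, 12.6 and 9.08 in control libraries (-0.40 ± 0.17, unadjusted p = 0.042, adjusted p = 0.757, limma). Within each table its wild-type libraries lay below the controls. HNRNPR (-0.47), HNRNPDL (-0.43) and HNRNPA3 (-0.39) followed by size of p, each with an adjusted p of 0.757 in limma. HNRNPR had 12.4, 18.0 and 18.0 FPKM in the wild-type libraries, against 32.2, 19.2 and 18.3 in control libraries. HNRNPDL had 38.8, 34.6 and 33.7 FPKM in the wild-type libraries, against 57.3, 58.6 and 33.7 in control libraries. HNRNPA3, an A/B-type protein, had 45.4, 37.5 and 34.5 FPKM in the wild-type libraries, against 75.9, 49.2 and 35.7 in control libraries. Leaving out 1 library moved HNRNPR to -0.15 (without control 1), HNRNPDL to -0.21 (without control 2), HNRNPA3 to -0.20 and HNRNPL to -0.36 (both without wild type 1). In HNRNPR, HNRNPDL and HNRNPA3 control 3 was close to wild type 2 and 3 of its table. In both tables every wild-type library was below every control of its table in HNRNPD, HNRNPH1, HNRNPR, HNRNPUL1 and SRSF4, 5 of 33 members against 9.24% of all genes, and above in SRSF8, against 7.42%.

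For R213A against control, 14 members had a fitted difference above 0 and 19 below, against 48.1% and 51.9% of all genes, with a median of -0.05 beside -0.02. As fitted, 8 of 11 SR genes were above 0 (median 0.063) and 16 of 22 hnRNP genes below 0 (median -0.082). Within the 5-library table these medians were 0.20 and -0.05, and within the 4-library table -0.18 and -0.20. The SR and hnRNP medians of R213A 2 were 0.48 and -0.11 against control 2, but -0.03 and -0.0079 against control 3. The difference between the families in the 5-library table thus drew on control 2. The members of smallest p were HNRNPLL (-0.42 ± 0.22), HNRNPL (-0.45 ± 0.26), SRSF11 (-0.36 ± 0.24), HNRNPM (0.53 ± 0.36) and HNRNPR (-0.38 ± 0.26; SE, adjusted p = 0.690 for each, limma). HNRNPLL had 3.25, 5.24 and 5.65 FPKM in R213A and 6.08, 8.93 and 5.93 in control libraries, with every R213A library below the controls of its table. SRSF11 had 5.13, 14.9 and 7.46 FPKM in R213A and 11.8, 15.7 and 14.7 in control libraries. Without control 1, the only control of its table, SRSF11 was at 0.03 and HNRNPR at 0.05. HNRNPM had 105, 30.5 and 86.5 FPKM in R213A and 82.3, 12.2 and 30.5 in control libraries, so R213A 2 and control 3 were alike, and its difference was 0.16 without control 2 and 0.90 without control 1. HNRNPL was at -0.16 without control 1. Within their tables, all R213A libraries lay below the controls in HNRNPA3, HNRNPD, HNRNPLL, HNRNPR and HNRNPUL1, 5 members against 11.8% of all genes, and above them in HNRNPA1L2 and HNRNPM, against 8.90%.

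For R213A against wild type, 27 members had a fitted difference above 0 and 6 below, against 51.5% and 48.5% of all genes, with a median of 0.16 beside 0.01. The member median was 0.47 within the 4-library table and -0.02 within the 5-library table, and -0.14 in the fit without wild type 1. HNRNPA1P48 (0.46 ± 0.23), SRSF7 (0.43 ± 0.26), SRSF2 (0.54 ± 0.33), SRSF4 (0.27 ± 0.18) and SRSF9 (0.34 ± 0.22) had the smallest p (SE; adjusted p = 0.996 for each, limma). Without wild type 1, HNRNPA1P48 was at 0.12, SRSF7 at 0.10, SRSF9 at 0.030 and SRSF2 at -0.092. Without R213A 2 these 4 were at 0.72, 0.78, 0.48 and 0.85. HNRNPA1P48 (chr16:51553436-51647132), an HNRNPA1 copy annotated as protein coding, had 14.2, 10.3 and 16.8 FPKM in R213A and 7.66, 10.9 and 9.22 in wild-type libraries. SRSF7 had 60.5, 28.0 and 49.9 FPKM in R213A and 28.3, 29.0 and 30.4 in wild-type libraries. SRSF2 had 82.9, 25.5 and 66.8 FPKM in R213A and 29.0, 27.5 and 26.5 in wild-type libraries. In both genes R213A 2 was below wild type 2 and 3 of its table, and within the 5-library table the difference was -0.08 for each. All R213A libraries lay above the wild-type libraries of their table in HNRNPH1, HNRNPH3, HNRNPM, HNRNPUL1, SRSF4 and SRSF9, 6 of 33 members against 10.1% of all genes, and in none were all below, against 10.3%. The comparisons share their R213A, wild-type and control libraries, so their values are given side by side only.

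**Figure D4:**
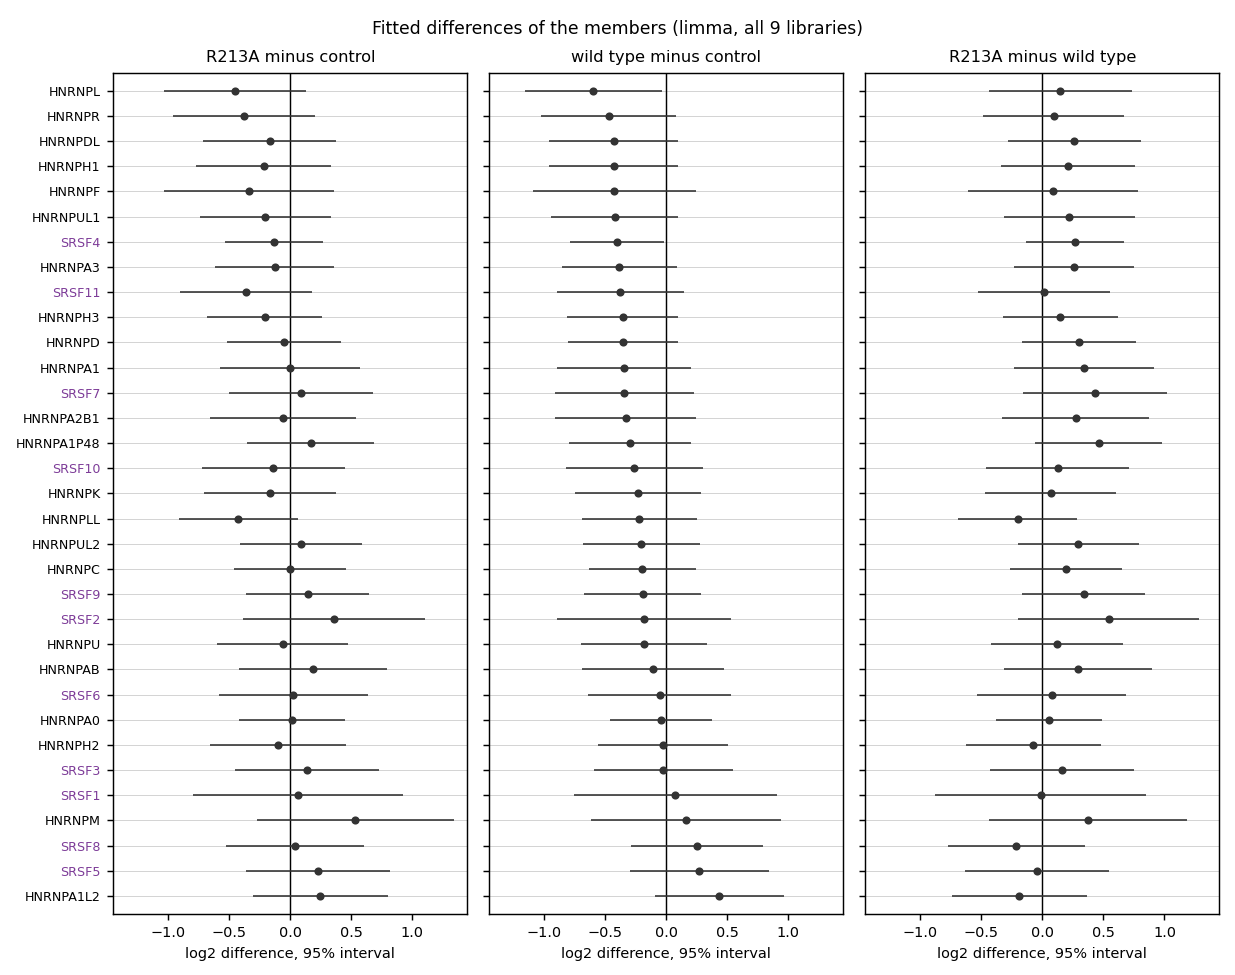
Fitted log2 differences of the 33 members that passed the filter with 95% intervals (limma, 9 libraries, table as a term), for R213A minus control, wild type minus control and R213A minus wild type. The intervals of HNRNPL and SRSF4 leave 0 in the middle panel, and no difference passed the adjusted threshold.

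Other genes of the splicing machinery were read from the same fit, in lists of textbook members, and none was called in any comparison (limma, adjusted p at or above 0.690). Their counts stand beside 53.7% of all genes below 0 for wild type against control and 51.5% above 0 for R213A against wild type. Of 20 SR-related regulators, coactivators with arginine-serine tails such as SRRM1, 19 were below 0 for wild type against control, with a median of -0.20, -0.64 within the 4-library table and -0.09 within the 5-library table. RBM25 had 3.64, 7.33 and 7.81 FPKM in the wild-type libraries and 11.0, 13.8 and 8.05 in control libraries (-0.75, unadjusted p = 0.013, adjusted p = 0.757, limma). SRRM1 had 4.42, 9.49 and 8.71 FPKM in the wild-type libraries and 12.1, 15.4 and 9.83 in control libraries (-0.69, adjusted p = 0.757, limma). Both stood above the wild-type range in control 1 and control 2 and near wild type 2 and 3 in control 3. Of 19 hnRNP proteins under other symbols, 16 were below 0 in this comparison with a median of -0.30, -0.79 within the 4-library table and -0.06 within the 5-library table, among them RBMX (-0.51).

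For SR protein kinases and phosphatases 10 of 12 were below 0 for wild type against control, with a median of -0.19, -0.37 within the 4-library table and -0.09 within the 5-library table. PPP1CC, a catalytic subunit of protein phosphatase 1, had 15.9, 32.4 and 30.6 FPKM in the wild-type libraries and 56.2, 47.4 and 32.7 in control libraries (-0.80, adjusted p = 0.757, limma). SRPK1, the main cytoplasmic SR kinase, had 18.1, 24.6 and 19.1 FPKM in R213A libraries, 12.5, 26.6 and 24.6 in wild type and 25.9, 27.8 and 24.9 in control libraries. Its lowest value was in wild type 1. Of 8 import and arginine methylation genes, 5 were below 0 for wild type against control, near the share of all genes, with a median of -0.23, -0.59 within the 4-library table and -0.08 within the 5-library table. PRMT1, which methylates many hnRNP proteins, had 157, 37.0 and 103 FPKM in R213A libraries, 90.5, 36.9 and 39.8 in wild type and 78.8, 41.2 and 38.8 in control libraries.

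Core spliceosome genes had another order of libraries in the 4-library table as deposited. Of 36 snRNP core and U2 auxiliary genes, all 36 were above 0 for R213A against wild type, against 51.5% of all genes, with a median of 0.23, 0.53 within the 4-library table and -0.02 within the 5-library table. For R213A against control 25 were above and 11 below 0, against 48.1% and 51.9% of all genes. Their median was 0.18, with 0.25 within the 4-library table and -0.04 within the 5-library table. The SR and hnRNP members had a median of -0.05 in this comparison. Against control 1, R213A 1 had a median of 0.39 over these genes and -0.28 over the members, and R213A 3 had 0.11 and -0.12. Scaled to the recovered totals, the medians over these genes were 0.04 in R213A 1 and 0.0022 in R213A 3 against control 1, beside -0.39 and -0.14 for all genes. Against wild type 1 they were 0.33 and 0.39 on that scale, and 0.63 and 0.44 as deposited. SNRPB, an Sm ring protein, had 770.4, 143 and 392 FPKM in R213A libraries, 253, 143 and 162 in wild type and 293, 131 and 150.3 in control libraries. SNRPA1, a U2 snRNP protein, had 25.8, 9.12 and 17.4 FPKM in R213A libraries, 8.12, 7.16 and 7.87 in wild type and 18.2, 11.5 and 7.67 in control libraries (0.74 for R213A against wild type, unadjusted p = 0.023, adjusted p = 0.996, limma). Of 15 nonsense-mediated decay factors, 10 were below 0 for wild type against control (median -0.15), where the median was -0.42 within the 4-library table and turned to 0.08 within the 5-library table, and 8 above 0 for R213A against wild type (median 0.03).

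The annotation of the members bears on what their FPKM can show. For all 38 the listed length and coordinates equalled the GENCODE 29 gene, with the length being the union of all exons. This length was up to 3.73 times that of the longest coding transcript, in SRSF4, followed by HNRNPU with 3.28 and SRSF9 with 3.12, which lowers the level of these genes relative to HNRNPAB (1.19) or HNRNPF (1.18) and, through the pseudocount, shrinks their differences in log2(FPKM + 1). Transcripts annotated for nonsense-mediated decay were listed for 24 of the 33 members that passed the filter (72.7%), against 44.5% of 9961 protein-coding genes tested. They were listed for all 11 SR genes and for 13 of 22 hnRNP genes. Transcripts with a retained intron were listed for 66.7% of the members and 59.2% of the 9961 genes. Gene totals do not separate these transcripts from coding ones, so neither exon inclusion nor decay isoforms were measured here.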

How the data were processed

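RNA sequencing of 9 libraries (3 groups of 3) was read from 2 tables of FPKM values, which the authors computed per gene and deposited. Per the submitters' processing notes the build was hg38 and bcl2fastq was used; the aligner, the counting and its strand setting were stated in none of the files or labels, so genes with antisense partners or near-identical copies are uncertain. Reads were recovered by multiplying FPKM by gene length and dividing by the step that 1 read makes in that library, and 100% of the recovered values lay within 0.01 of a whole number. Totals were 15951927 to 18312806 reads per library, where 0 reads allow up to 3 (counting error only).

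The 11193 genes that averaged 1 FPKM or more were compared on log2(FPKM + 1) with limma 3.58.1 in R 4.3.3, with a mean-variance trend, group and table as terms, 5 residual degrees of freedom and Benjamini-Hochberg adjustment over all genes (threshold 0.05, two-sided). Such differences understate those of genes with low values. The procedure was tested on simulated data with set changes for R213A against control. It called 58% of genes changed by 1 log2 unit and 98% of those changed by 2. Smaller changes were not simulated. Pairs of libraries were compared within a table, with 1.5-fold on the log2(FPKM + 1) scale as the size named. Scaling to the recovered totals, compared as log2(CPM + 1) without gene length, was added after the data were seen.

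Members and lists were chosen with earlier results of these data known, so lists are given by counts and medians. Library values are given for the 5 members of highest mean, the 5 of smallest p in each comparison, those of largest range in each role group and, chosen after their values were seen, those that set control 2 apart. Up to 3 genes of smallest p stand for each further list. Alternatives changed the pseudocount, filter, scaling, table term, replicate block, tables and libraries in the fit, and the spread model. Promoters came from RefSeq (GRCh38.p14), transcript classes from GENCODE 29. Python 3.11.15 with pandas 2.3.3 and scipy 1.17.1 was used.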

Additional observations from a re-analysis of the deposited data

Results flagged for a closer look

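The processed pseudogene HNRNPKP4 (hg38 chr3:96349554-96350939), outside the protein-coding members, had 15.3 FPKM in wild type 3, against 3.10 FPKM in control 3, the higher control of the same table. Its other values were 2.02, 4.17 and 2.00 FPKM in R213A 1 to 3, 1.83 and 4.08 in wild type 1 and 2, and 4.81 and 2.50 in control 1 and 2. Wild type 3 was the only library above 5 FPKM, while the parent gene HNRNPK had 133 and 119 FPKM in wild type 2 and 3. HNRNPKP4 is a copy of HNRNPK, and how the counting assigned reads to such copies is not given, so its level is uncertain. The difference between the library and its controls was not tested.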

How the results depend on the processing

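Pseudocounts of 0.1 and 0.5, a filter at a mean of 5 FPKM, quantile and median-of-ratios scaling, no table term, limma-voom and the 5-library table alone each called 0 genes in every comparison. Without a filter 1 gene was called for R213A against control and 1 for wild type against control. The 4-library table alone, where the lone wild-type and control libraries take their spread from the R213A pair (1 residual degree of freedom), called 184 genes for R213A against control, 775 for wild type against control and 327 for R213A against wild type. There the member medians were -0.71 for wild type against control and 0.47 for R213A against wild type. In the 5-library table alone the median for wild type against control was 0.013, and SRSF7 and SRSF2 were at -0.081 and -0.077 for R213A against wild type. The member median for R213A against control was -0.05 with and 0.08 without the table term. Leaving out 1 library in turn called 0 genes each time. The member median then ran from -0.12 to 0.15 (without control 1) for R213A against control, -0.37 to -0.04 (without wild type 1) for wild type against control and -0.14 (without wild type 1) to 0.23 for R213A against wild type. SRSF2 ran from -0.092 (without wild type 1) to 0.85 for R213A against wild type, and for R213A against control SRSF11 ran from -0.50 to 0.031 and HNRNPR from -0.49 to 0.049 (both highest without control 1). Scaled to the recovered totals, a choice made after seeing the data, 9 members in control 2 were above the other 4 libraries (15 as deposited; 26.8% and 43.7% of all genes), 1 was at least 1.5-fold above their mean (2 as deposited; 4.53% and 7.21%), and 17 in R213A 1 were at least 1.5-fold below control 1 (11 as deposited; 42.1% and 24.1%). The deposited scaling was 1.11 times that of the recovered totals in control 2, 1.18 times in R213A 1 and 0.915 times in control 1. Why it differed was not tested. Depth limits HNRNPA1L2, with 43 to 241 reads per library, more than HNRNPA1, with 20685 to 36726.

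Replicate numbers were not taken to pair the libraries, since no label states a pairing. Deviations from the group means correlated at 0.73, 0.60 and 0.77 for number 1, 0.51, 0.33 and 0.84 for number 2 and -0.65, 0.57 and -0.70 for number 3 (R213A with control, wild type with control, R213A with wild type). These follow which table a library is in, so they cannot decide on a pairing. With group and table removed, the 9 correlations ran from -0.76 to -0.06. Residuals of that fit cancel within each group and each table, so this range cannot decide it either. A replicate block called 0 genes in each comparison, with member medians of -0.10, -0.23 and 0.14.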
